A study of Mus musculus with 13 samples.

Results

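The major urinary protein (Mup) genes were examined in aortic endothelial cells (ECs) and whole hearts of mice with and without heme oxygenase 2, the heme-degrading enzyme encoded by Hmox2. The 9 genes described here, Mup1, Mup2, Mup3, Mup7, Mup10, Mup11, Mup18, Mup20 and Mup22, are 9 of the 36109 genes listed in the files and 9 of 22 listed Mup genes. They were selected because of the levels measured in these same libraries, so their levels, and the number of them that edgeR called, are given as a description and support nothing.

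RNA was sequenced in 13 libraries from Hmox2+/+ and Hmox2-/- mice kept in room air. Aortic ECs gave 3 Hmox2+/+ and 3 Hmox2-/- libraries, and hearts gave 4 Hmox2+/+ and 3 Hmox2-/- libraries. For the sequenced hearts the authors state 3 per genotype. The Hmox2+/+ mice were littermate controls of the mice with the deletion, the sequenced mice were described as young, and their sex is not given. EC RNA was collected by flushing the aortic lumen with a lysis reagent. The labels number the libraries within each group and do not name the mice. In such bulk samples fewer cells of a type and less RNA per cell cannot be told apart.

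Mup genes encode small secreted lipocalins, barrel-shaped proteins that carry hydrophobic molecules. In mice most of them are made by hepatocytes under the control of growth hormone and androgens, pass from blood into urine and carry volatile pheromones, and some are made in glands. Mup20 encodes darcin, a pheromone in its own right.

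The libraries had 26067147 to 31619776 estimated counts, except Hmox2+/+ heart 1 with 7268626. Hmox2 was lower in Hmox2-/- mice in ECs (log2 fold change -2.34, SE 0.13, edgeR adjusted p = 1.31e-04) and in heart (-2.30, SE 0.11, edgeR adjusted p = 1.58e-07). Endothelial markers summed to 2976 to 4354 CPM (counts scaled to the normalized library size) in Hmox2+/+ and 5202 to 6347 CPM in Hmox2-/- ECs, and cardiomyocyte markers to 41526 to 47519 CPM in hearts. EC libraries of both genotypes also carried markers of other cells, with white adipocyte markers at 8432 to 14362 CPM. The sum of 4 Y-linked genes was 170 and 194 counts in Hmox2-/- EC libraries 2 and 3, against 4420 to 5596 in the other EC libraries. The Hmox2-/- EC group was thus mixed in this measure, and most of its libraries were unlike every Hmox2+/+ EC library.

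The Mup genes lie in one cluster on chromosome 4, from 59956804 to 62069175 of GRCm39, a span of 2.11 Mb. Their coding sequences differ so little that reads are hard to assign to 1 gene. The following stretch of 70 coding bases is shown because it holds the bases that separate the leading members. It is numbered 195 to 264 from the first base of the start codon of Mup22, it crosses an exon junction, and it lies at chr4:60776048-60776885 in Mup22 and chr4:61590892-61591730 in Mup18 (GRCm39, minus strand). Capitals mark bases that differ from Mup22 in the GENCODE M39 transcripts.
Mup22: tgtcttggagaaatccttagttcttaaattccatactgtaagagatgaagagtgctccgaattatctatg
Mup10: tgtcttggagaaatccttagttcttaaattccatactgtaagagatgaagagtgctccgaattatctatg
Mup18: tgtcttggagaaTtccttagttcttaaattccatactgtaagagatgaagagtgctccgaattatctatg
Mup11: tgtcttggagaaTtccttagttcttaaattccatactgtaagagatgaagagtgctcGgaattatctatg
Mup7: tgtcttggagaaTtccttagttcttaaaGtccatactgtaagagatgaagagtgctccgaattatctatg
Mup20: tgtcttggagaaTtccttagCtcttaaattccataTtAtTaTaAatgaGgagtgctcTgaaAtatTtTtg

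Over the whole coding sequence of 546 bases, Mup18 differed from Mup22 by A207T alone, and Mup11 by A207T and C252G, where the base of Mup22 comes first and positions are counted from the start codon. Mup10 had no difference in this stretch and was 99.3% identical to Mup22 in all, with 3 bases fewer near its start. Mup7 was 98.4% identical, Mup20 91.2% and Mup3 83.4%. Of the 31-base words of each gene's transcripts, 3.53% of those of Mup22, 6.85% of Mup18 and 7.60% of Mup7 occurred in no other listed gene or pseudogene, against 67.9% for Mup3. Mup pseudogenes set aside, 1.07% of the words of the Mup genes occurred in a gene outside the family. The sum over members is therefore the measurement, and the split between members is an estimate.

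In ECs the member sum was 89.6, 96.0 and 42.6 estimated counts in Hmox2+/+ libraries 1 to 3. In Hmox2-/- ECs it was 3209, 4309 and 11153 estimated counts. Every Hmox2-/- EC library lay above every Hmox2+/+ EC library. Scaled to library size the mean was 2.61 ± 1.12 CPM (SD, n = 3) in Hmox2+/+ and 230 ± 159 CPM (SD, n = 3) in Hmox2-/- ECs. This ratio was 88.0-fold, a log2 ratio of 6.46. Without Hmox2-/- library 3 it was 53.4-fold, and with Hmox2-/- library 1 as the only knockout library, the one whose Y-linked genes were at the level of the Hmox2+/+ libraries, it was 43.5-fold. With group medians in place of means it was 51.4-fold. Deposited TPM, which corrects for transcript length, summed to 2.23 to 5.24 in Hmox2+/+ and 180 to 644 in Hmox2-/- ECs.

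In hearts the sum was 0 in all 4 Hmox2+/+ libraries. In Hmox2-/- hearts it was 0, 174 and 146 estimated counts. Hmox2-/- heart 1 therefore overlapped the Hmox2+/+ hearts, while the other two did not. Hmox2+/+ heart 1 was shallow, and 3 counts in it equal 0.446 CPM, against 0.104 to 0.114 CPM in the other Hmox2+/+ hearts. With Hmox2+/+ hearts set to this floor of 3 counts per library, the Hmox2-/- mean of 3.21 ± 2.82 CPM (SD, n = 3) was at least 16.7-fold higher, at least 29.7-fold without Hmox2+/+ heart 1 and at least 25.0-fold without Hmox2-/- heart 1. With group medians it was at least 39.6-fold higher. TPM sums were 8.19 and 7.68 in Hmox2-/- hearts 2 and 3, less than in any Hmox2-/- EC library.

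**Figure D1:**
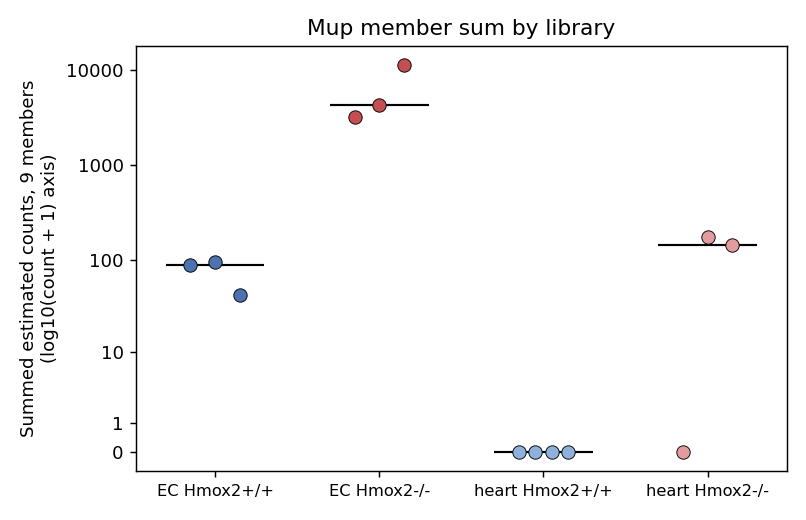
Summed estimated counts of the 9 members in each library (points) on a log10(count + 1) axis, with a line at the median of each group. Hmox2-/- ECs sit between 3209 and 11153 and Hmox2+/+ ECs between 42.6 and 96.0, while Hmox2+/+ hearts and Hmox2-/- heart 1 are at 0.

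Of the 9 members, 6 passed the filter on low counts in ECs and 5 of these met the criteria for differential expression (edgeR adjusted p up to 0.05 with a change of 2-fold or more in either direction), all higher in Hmox2-/-. Over all genes tested in ECs 9.28% met the criteria and 5.39% were higher, and because the members were picked from these libraries nothing is read from the difference. The members that passed were Mup22, Mup18, Mup11, Mup10, Mup7 and Mup3, and Mup3 was the one not called. In heart none of the 9 passed the filter, where 6.71% of tested genes met the criteria and 2.66% were higher.

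Mup22 made up 66.0%, 71.5% and 73.0% of the member TPM in Hmox2-/- ECs 1 to 3. Its estimated counts were 49.9, 58.3 and 31.6 in Hmox2+/+ and 2062, 2995 and 7945 in Hmox2-/- ECs. The groups did not overlap, and the mean was 1.59 ± 0.534 CPM in Hmox2+/+ and 160.0 ± 116 CPM in Hmox2-/- ECs (SD, n = 3 each), a 101-fold ratio. Mup22 and Mup10 are the members without the change A207T.

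Mup18 had 0 counts in all Hmox2+/+ ECs and 381, 787 and 1767 in Hmox2-/- ECs. Against the floor it was at least 358-fold higher. Mup11 also had 0 counts in Hmox2+/+ ECs, with 645, 451 and 1119 in Hmox2-/- ECs, at least 268-fold higher. Together with Mup22 these members held 96.2% to 98.2% of the member counts in Hmox2-/- ECs. In none of these members did a Hmox2+/+ EC library reach a Hmox2-/- EC library. The share of all genes separated in this way was not counted, so nothing is read from such separation here or below.

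Mup10 had 5.98, 18.1 and 0 counts in Hmox2+/+ and 89.5, 54.0 and 299 in Hmox2-/- ECs, a 19.7-fold ratio of mean CPM. Mup7 was at 0 in Hmox2+/+ ECs and at 11.1, 17.8 and 15.7 counts in Hmox2-/- ECs, at least 5.43-fold higher. Mup7 was thus close to the limit of detection, although it too was separated between genotypes.

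Mup3, the member with the fewest shared words, behaved otherwise. It had 17.0, 10 and 11.0 counts in Hmox2+/+ and 18.0, 4.0 and 5.0 counts in Hmox2-/- ECs. These ranges overlap. Mup1 stayed at 8.61 counts or less in every EC library, Mup20 at 1.0 or less, and Mup2 was above 0 only in Hmox2+/+ EC 1, with 16.7 counts.

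The split of the heart sum among members was estimated to differ from that in ECs. Several members were above 0 in Hmox2-/- ECs too, among them Mup22, Mup11 and Mup7. Mup7 led with 74.2 and 54.7 counts in Hmox2-/- hearts 2 and 3, 40.8% and 36.8% of the member TPM, against at most 0.359% in Hmox2-/- ECs. Mup22 followed with 54.4 and 35.3 counts and Mup11 with 24.0 and 22.1. Darcin's gene Mup20 had 7.0 and 10 counts, Mup3 had 10 and 18.0, and Mup1 had 4.77 and 5.79. Mup18, Mup10 and Mup2 were at 0 in all hearts. The difference in makeup between tissues is a description of 2 heart libraries and was not tested. It rests on how few counts were assigned between genes that share most words, 92.4% for Mup7 and 96.5% for Mup22.

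**Figure D2:**
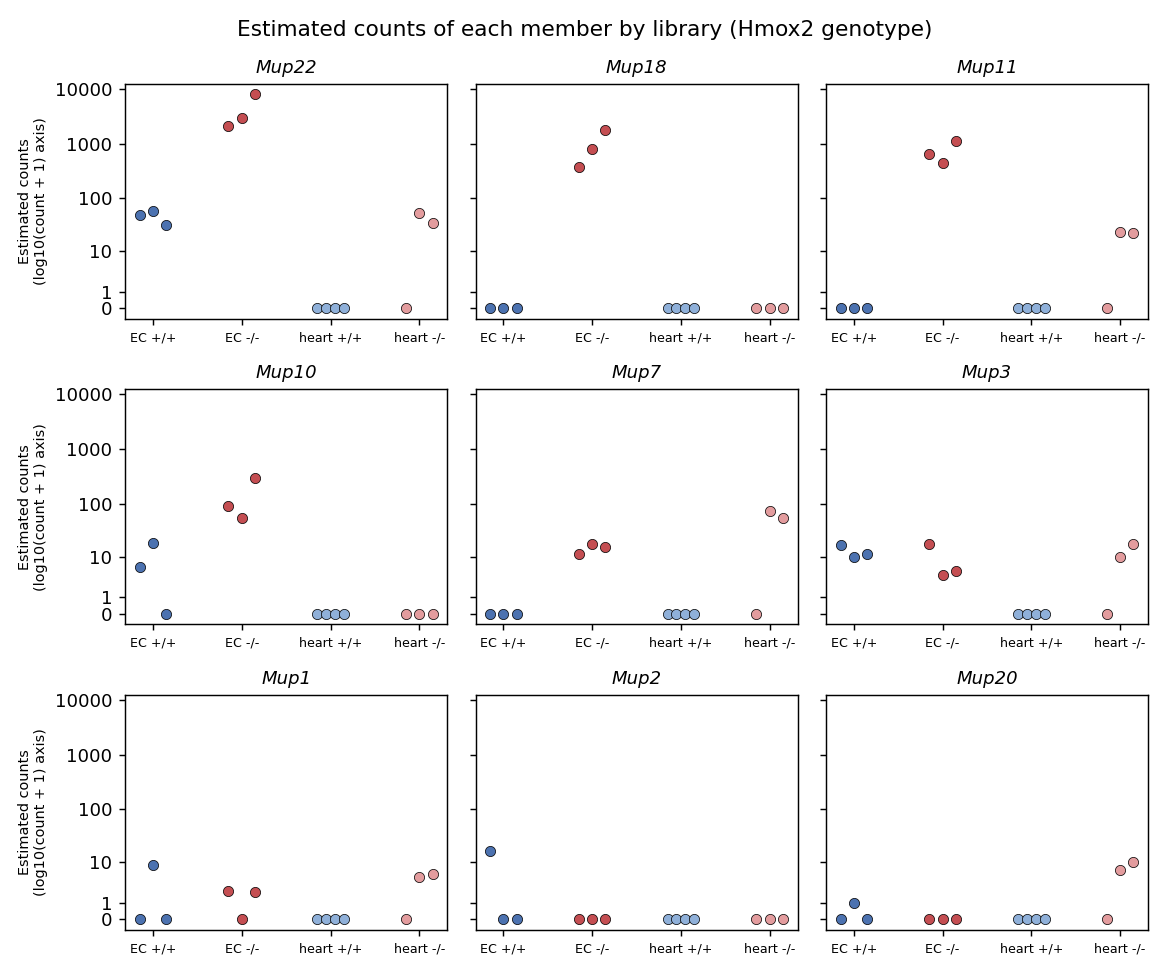
Estimated counts of each member in each library on a log10(count + 1) axis, grouped by tissue and Hmox2 genotype. Mup22, Mup18, Mup11, Mup10 and Mup7 separate the EC genotypes, Mup3 does not, and Mup18 and Mup10 are at 0 in every heart. The members were picked from these libraries, so the separation is a description.

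**Figure D3:**
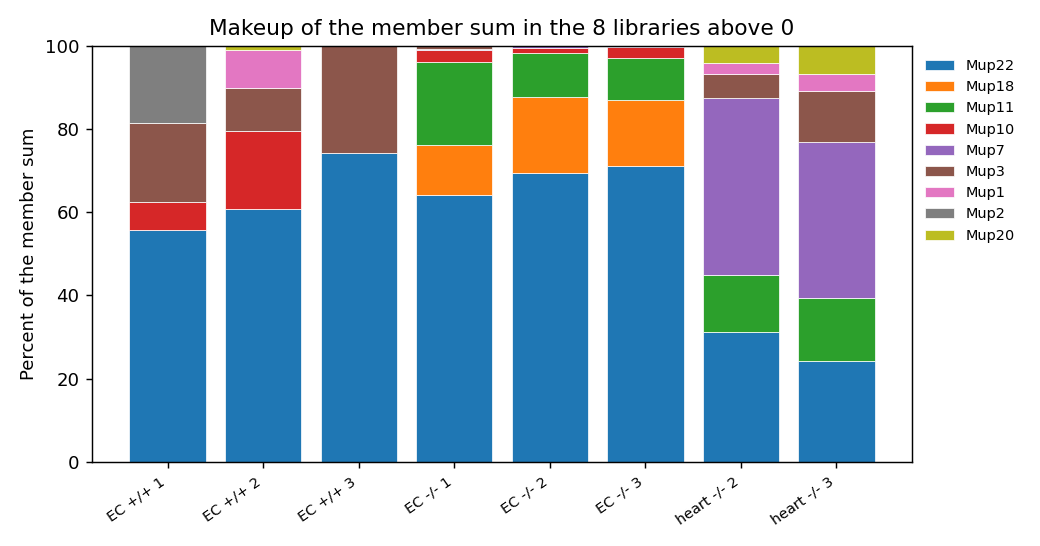
Share of each member in the summed estimated counts of the 8 libraries in which the sum was above 0. Mup22 is the largest share in the EC libraries, and Mup7 in Hmox2-/- hearts 2 and 3.

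The other 13 listed Mup genes held few counts. They summed to 26.1 to 42.9 in Hmox2+/+ and 39.7 to 114 in Hmox2-/- ECs, which was 0.923% to 1.22% of all Mup counts in the latter. Mup16, which shares 94.9% of its words, had 0 counts in Hmox2+/+ ECs and 22.3, 26.7 and 45.5 in Hmox2-/- ECs. Mup5, which shares 36.0%, had the opposite order, with 6.0, 5.0 and 24.0 counts in Hmox2+/+ and 1.0, 0 and 0 in Hmox2-/- ECs. In Hmox2-/- heart 2 these genes held 44.5 counts, of which Mup19, with no words of its own, held 25.1.

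Promoter sequences were available from RefSeq (GRCm38.p6) for 6 of the 9 members. The 150 bases before the annotated start are shown for Mup18, Mup11 and Mup10, which were high in Hmox2-/- ECs, and for Mup2, which was at 0 there, and capitals mark the letters TATATAAGG.
Mup18: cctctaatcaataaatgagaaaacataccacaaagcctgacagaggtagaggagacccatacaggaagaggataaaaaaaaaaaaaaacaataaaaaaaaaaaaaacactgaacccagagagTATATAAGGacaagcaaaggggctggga
Mup11: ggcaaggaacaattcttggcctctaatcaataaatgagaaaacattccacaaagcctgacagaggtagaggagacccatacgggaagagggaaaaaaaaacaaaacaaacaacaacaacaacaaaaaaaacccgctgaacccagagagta
Mup10: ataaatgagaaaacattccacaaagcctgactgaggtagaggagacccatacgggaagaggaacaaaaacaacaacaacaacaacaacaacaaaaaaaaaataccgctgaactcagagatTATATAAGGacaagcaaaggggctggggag
Mup2: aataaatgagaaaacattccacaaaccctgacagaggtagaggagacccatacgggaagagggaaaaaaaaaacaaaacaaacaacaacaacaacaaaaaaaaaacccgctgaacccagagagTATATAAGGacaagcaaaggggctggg

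These windows are chr4:61674095-61674244, chr4:60662396-60662545, chr4:60582156-60582305 and chr4:60139857-60140006 on the minus strand. TATATAAGG, chosen after the sequences were seen, occurred in the windows of Mup18, Mup10, Mup2 and Mup3, not in those of Mup11 and Mup7, and in 0.237% of 32851 promoter windows of the same length on either strand. A missing match says only that these letters are not within the window. Mup2 was 81.3% identical to Mup18 and 88.2% to Mup10 over the window, while Mup18 and Mup10 were 78.1% identical. TTCNNNGAA, the letters of the core of a STAT motif, and TATAAA were in none of the 6 windows on either strand, and in 4.09% and 7.57% of all windows.

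Markers of hepatocytes, the main source of these proteins, were set beside the sum. Albumin (Alb) had 0, 9.0 and 18.0 counts in Hmox2+/+ ECs and 0, 1.0 and 9.0 counts in Hmox2-/- ECs. Hmox2-/- EC 1, with 3209 Mup counts, had no Alb count, and the fibrinogen gene Fgb was at 1.0 count or less in all EC libraries. Other hepatocyte genes were present there. Without Hp, Cyp2e1 and the Serpina1 genes, 21 listed hepatocyte genes summed to 356.5 counts in that library, with 12 at 1 count or more. Most of these counts were in Ahsg (231) and Serpina3k (72.5), and Ahsg had 163, 98.0 and 324 counts in Hmox2+/+ ECs. The sum of the 21 genes was 226 to 463 in Hmox2+/+ ECs, and 232 and 178 in Hmox2-/- ECs 2 and 3. In heart the pattern was another one. Alb was at 0 in all 4 Hmox2+/+ hearts and in Hmox2-/- heart 1, and at 34.0 and 129 counts in Hmox2-/- hearts 2 and 3, the same libraries in which Mup counts were found. Fgb had 9.0 and 6.0 counts in these hearts and 0 in the others. The part of hepatocyte transcripts in the EC and heart values was not tested.

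**Figure D4:**
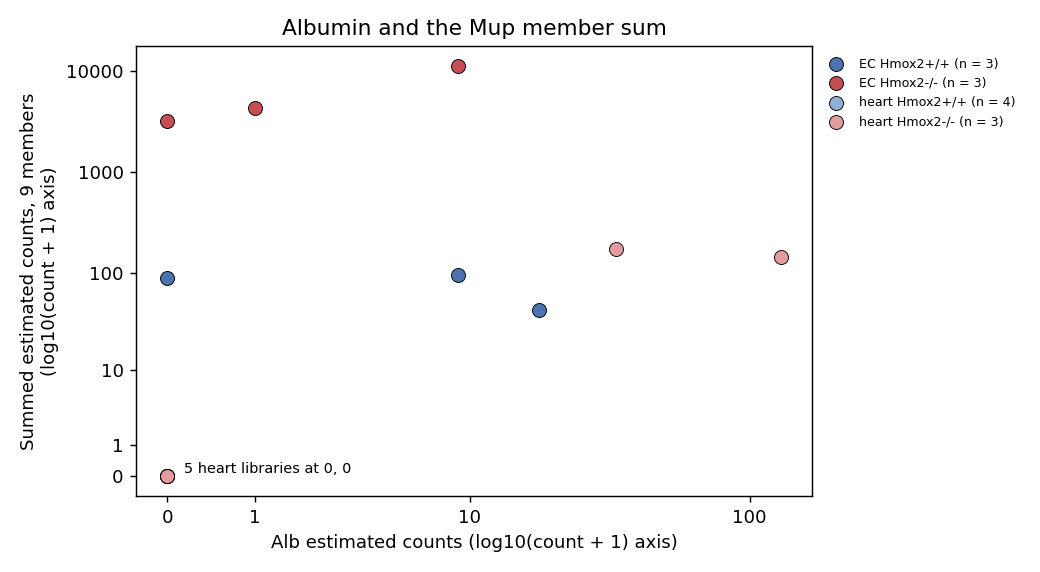
Estimated counts of Alb (x axis) against the member sum (y axis) in each library, both on log10(count + 1) axes. Hmox2-/- ECs have the highest member sums at 0 to 9.0 Alb counts, and Hmox2-/- hearts 2 and 3 are the libraries with the most Alb.

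Of 28 hepatocyte genes, 10 were tested in ECs and 1 was lower in Hmox2-/-, with a median log2 fold change of 0.18 against -0.02 over all genes tested. The one called was Tat, the tyrosine aminotransferase (-5.17, edgeR adjusted p = 0.00868). Hp, the hemoglobin-binding haptoglobin (0.73, edgeR adjusted p = 0.119), and Cyp2e1, an ethanol-oxidizing cytochrome (-0.04, edgeR adjusted p = 0.974), were abundant in ECs of both genotypes and did not pass. In heart 5 were tested and 2 were higher, Ttr, a carrier of thyroid hormone (4.02, SE 0.57, edgeR adjusted p = 8.08e-04), and Hp (2.94, edgeR adjusted p = 4.88e-04). Their median was 1.47 against -0.01 over all genes. Ttr had 21.0, 23.0 and 17.0 counts in Hmox2-/- hearts, and so was present in heart 1, where no Mup or Alb count was found.

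Some Mup genes are known to be made in exocrine glands. Of 12 listed gland markers 5 were at 0 in every EC library, Wap, Smr3a, Pip, Prol1 and Dcpp1, and 8 in every heart. The amylase gene Amy1 had 2456 to 4249 counts in EC libraries and did not pass there (-0.30, edgeR adjusted p = 0.398), and the water channel gene Aqp5 had up to 42.3 counts, in a Hmox2+/+ library.

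Genes that control Mup transcription in liver were followed by a list of 19, of which 16 were tested in each tissue. In ECs 3 were lower and none higher, and in heart none was called (edgeR, with the criteria above). Over all genes tested in ECs 595 of 15301 were called lower. Cebpb (-1.33, SE 0.32, edgeR adjusted p = 0.0305), Thrb, a thyroid hormone receptor (-1.16, SE 0.19, edgeR adjusted p = 0.0101), and Cebpa (-1.08, SE 0.24, edgeR adjusted p = 0.0249) were the genes called lower in ECs. Nfix was also lower (-0.54, edgeR adjusted p = 0.02) and Igf1 higher (0.97, edgeR adjusted p = 0.00495), passing the adjusted p and not the fold criterion. The growth hormone receptor Ghr, with 4545 to 6589 counts in ECs, gave -0.08 (edgeR adjusted p = 0.714). Hnf4a, the hepatocyte master regulator, was at 0 in all EC libraries.

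Of 8 genes with male-biased expression in liver, 3 were tested in ECs. Selenbp2 fell in both tissues (-4.78, edgeR adjusted p = 0.00406 in ECs and -5.90, edgeR adjusted p = 6.98e-05 in heart). Elovl3, a fatty acid elongase, had 62.0, 486 and 24.0 counts in Hmox2+/+ and 411, 278 and 1081 in Hmox2-/- ECs, overlapping ranges (1.75, edgeR adjusted p = 0.243). Elovl3 is also one of the brown adipocyte markers counted below.

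Among 14 other lipocalin genes, 6 were tested in ECs, with 1 higher and 1 lower. Apod, a lipid carrier, rose from 693 to 989 counts to 1993 to 4440 (1.92, SE 0.29, edgeR adjusted p = 0.00769). Ptgds, a prostaglandin D synthase, fell in ECs (-2.98, edgeR adjusted p = 0.0109) and rose in heart (1.73, edgeR adjusted p = 5.02e-05). The iron-siderophore binder Lcn2 rose in heart (1.52, edgeR adjusted p = 7.92e-04).

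Cell markers are given beside the Mup sum, whether they fell, rose or were not called. In ECs cardiomyocyte markers fell from 112 to 427 CPM to 5.63 to 9.18 CPM, with 7 of 8 called lower. In hearts they summed to 41526 to 46618 CPM in Hmox2+/+ and 42757 to 47519 CPM in Hmox2-/-, with 1 called higher and 1 lower. Of 6 smooth muscle markers 3 were lower in ECs, and of 9 white adipocyte markers 3 were lower there, among them leptin (Lep, -3.77, edgeR adjusted p = 0.00192). None of the 8 brown adipocyte markers was called in ECs (edgeR). The summed endothelial markers given above were higher in Hmox2-/- ECs without overlap between the genotypes, but single markers moved both ways. Of the 8, 1 was called higher in ECs, Tie1 (1.01, SE 0.18, edgeR adjusted p = 0.0123). Pecam1 (0.86, edgeR adjusted p = 0.0416) and Tek (0.74, edgeR adjusted p = 0.0224) passed the adjusted p and not the fold criterion. Kdr did so in the other direction (-0.58, edgeR adjusted p = 0.0233), and Emcn was at -0.47 (edgeR adjusted p = 0.363). In heart all 5 erythroid genes tested were higher, with Hbb-bs at 2.31 (edgeR adjusted p = 4.20e-05). The part of these cells in the Mup values was not tested.

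Beside the cluster, 38 other genes lie within 1 Mb of it. In ECs 23 were tested and 3 were called, all lower (Bspry, Alad and Hdhd3), and in heart 24 were tested and 2 were called, both lower (Bspry and Zfp618). Over all genes tested, 595 of 15301 were called lower in ECs and 559 of 13816 in heart (edgeR). Alad, which acts in heme synthesis, fell by 1.64 on the log2 scale in ECs (SE 0.15, edgeR adjusted p = 0.00183), from 2830 to 3515 counts to 871 to 994. None of these genes was called higher in either tissue.

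Over the 13 libraries, the genes outside the family whose log2(CPM + 1) was most like that of the member sum were Palb2 (Pearson's r 0.97), Edil3 (0.95), Dmgdh (0.95) and Klk1b22 (0.95), followed by Gm5345, Rhpn2, Mbd4, Gm47932, Rec8 and Gria4. These were the highest of 15931 genes compared, and the libraries share tissue and genotype, so the values describe a group pattern. Klk1b22, a kallikrein, had 0 counts in all Hmox2+/+ libraries, 26.0, 38.0 and 69.0 in Hmox2-/- ECs and 0, 5.0 and 8.0 in Hmox2-/- hearts. It was thus above 0 in the same Hmox2-/- libraries as the Mup genes.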

How the data were processed

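Poly(A) RNA libraries of aortic ECs and hearts were pseudoaligned by the authors with kallisto 0.44.0, with GENCODE M32 named as the index, and the mm10 build also stands in the submitters' notes. The authors deposited estimated counts and TPM per transcript for each library, with no normalization between libraries. By default kallisto ignores strand and splits reads among near-identical transcripts by likelihood.

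Transcripts were matched to GENCODE M39 by identifier (115140 of 118489, 97.2%), and gene values are sums of the estimated counts, rounded to whole counts only for the tests. Genes kept by filterByExpr (minimum count 10) were TMM-scaled and tested within each tissue by edgeR 4.0.16 (quasi-likelihood F-test, Benjamini-Hochberg adjustment, R 4.3.3). SEs were taken from the log2 fold change and F. In a simulation where 200 genes changed by a fold of 4, 160 were recovered in ECs (136 of 139 over 5 CPM, 24 of 61 below) and 186 in heart, with 8 and 6 false calls. DESeq2 1.42.0 was an alternative. Low genes that were not called may thus be missed, in ECs above all. A group with 3 counts or less in each library was set to 3 counts. Named genes were the members, and up to 6 per list by significance and abundance or as defining markers at or near 0. Up to 4 neighbours, the 10 most alike and some list genes that passed the adjusted p alone were also named. Members and lists were chosen with earlier results of these data known. Replicates are the numbered libraries, and p-values measure the spread between them.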

Additional observations from a re-analysis of the deposited data

Results flagged for a closer look

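Hmox2+/+ heart 1 lay far from the other 3 Hmox2+/+ hearts in total estimated counts (7268626, with a gap of 0.926 of the group's range, above Dixon's critical value). Of 17 quantities checked over these 4 hearts it was the one so marked, and chance marks about 1 in 20.

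The genotype effect differed between ECs and heart (edgeR interaction over the 4 groups, adjusted over all genes) for several genes outside the family, given here with the log2 fold changes of each tissue. Among the liver genes, it differed in Tat (-5.17 in ECs and not tested in heart alone, edgeR adjusted p = 0.0148) and Hp (0.73 in ECs and 2.94 in heart, edgeR adjusted p = 0.00472). So it did in Ttr (not tested in ECs alone and 4.02 in heart, edgeR adjusted p = 0.00962). Of the lipocalins, the effect differed in Ptgds (-2.98 in ECs and 1.73 in heart, edgeR adjusted p = 2.42e-05) and Apod (1.92 in ECs and 0.23 in heart, edgeR adjusted p = 0.00365). So it did in Lcn2 (-0.60 in ECs and 1.52 in heart, edgeR adjusted p = 0.025). Among the Mup regulators, it differed in Cebpb (-1.33 in ECs and 0.36 in heart, edgeR adjusted p = 0.0236) and Cebpa (-1.08 in ECs and 0.47 in heart, edgeR adjusted p = 0.00257). Of the gland markers, the effect differed in Amy1 (-0.30 in ECs and 0.93 in heart, edgeR adjusted p = 0.00509). Among the cardiomyocyte markers, it differed in Myl2 (-8.85 in ECs and 0.64 in heart, edgeR adjusted p = 7.24e-05) and Myl7 (-4.18 in ECs and 2.92 in heart, edgeR adjusted p = 6.22e-04). So it did in Myh6 (-7.53 in ECs and -0.37 in heart, edgeR adjusted p = 3.94e-05). Of the smooth muscle markers, the effect differed in Myh11 (-2.12 in ECs and 0.04 in heart, edgeR adjusted p = 0.00894) and Acta2 (-1.19 in ECs and 0.66 in heart, edgeR adjusted p = 0.025). So it did in Tagln (-1.14 in ECs and 1.17 in heart, edgeR adjusted p = 0.00537) and Des (-1.42 in ECs and 0.51 in heart, edgeR adjusted p = 1.73e-04). Among the endothelial markers, it differed in Tie1 (1.01 in ECs and -0.01 in heart, edgeR adjusted p = 0.00513). Of the erythroid markers, the effect differed in Hbb-bs (-0.14 in ECs and 2.31 in heart, edgeR adjusted p = 7.44e-04). Among the brown adipocyte markers, it differed in Cox8b (-0.77 in ECs and 1.24 in heart, edgeR adjusted p = 9.61e-04). Of the white adipocyte markers, the effect differed in Pnpla2 (-1.05 in ECs and 0.11 in heart, edgeR adjusted p = 0.00466). The difference between tissues in the Mup sum itself was not tested.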

How the results depend on the processing

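The log2 ratio of the member sum kept its direction under every alternative run, which supports nothing because the members were chosen on these same values. In ECs it was 5.74 to 6.78 when single libraries were left out, 6.25 as a fit with the replicate number as a block, and 5.44 without the knockout libraries with few Y-linked transcripts, an alternative chosen after seeing the data. In heart, with Hmox2+/+ libraries at the floor of 3 counts, its lower bound was 3.50 to 4.89 when single libraries were left out. Group medians in place of means gave 5.68 in ECs and at least 5.31 in heart. For heart no paired fit of the sum and no TPM ratio could be given, because the sum did not pass the filter and Hmox2+/+ TPM is 0.

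The number of genes called in ECs was 1420, with 532 to 1721 when single libraries were left out (532 without Hmox2-/- 3, 864 without Hmox2-/- 2), 1389 with the replicate block and 49 without the knockout libraries with few Y-linked transcripts, where the lone knockout library is assumed to vary like the rest. In heart it was 927, with 730 to 1259 when single libraries were left out and 696 with the block. Deviations of same-numbered libraries correlated at 0.18, 0.04 and 0.09 in ECs and at -0.03, 0.08 and 0.04 in heart, not over 0.1 in every pair, so the numbers were not taken as pairs. Hepatocyte genes called numbered 1 in ECs and 0 without those knockout libraries (edgeR, with 2462 of all genes at an unadjusted p under 0.05). In heart they numbered 2, 9 without the filter, 2 to 6 when single libraries were left out (6 without Hmox2-/- heart 1), and 3 with the replicate block. The causes were not tested. Sums under 3 counts per library are below what these depths can show.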
